A study of Danio rerio with 24 samples.

Results

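Carrying a human α1-antitrypsin (AAT) transgene was compared with not carrying one in the livers of 24 zebrafish, the 12 carriers against the 12 non-carriers, which together are all the samples of the series. The carriers were 6 Z+ fish, Tg(lfabp:eGFP-T2A-ZAAT), and 6 A+ fish of the line with wildtype AAT. The non-carriers were their non-transgenic siblings, 6 Z- and 6 A-. All were 2 months old. In both lines the promoter of the liver fatty acid binding protein gene (lfabp, fabp10a) drives eGFP and human AAT as 1 transcript that a T2A peptide separates into 2 proteins, so that effects of eGFP and of AAT cannot be told apart here. The Z form of AAT folds poorly in the ER, whereas the wildtype form is secreted. Each construct is represented by 1 line, kept heterozygous and outcrossed to TU wildtype fish. The insertion sites are not given in the sources used here, and the labels give neither the sex of the fish nor the hour of dissection nor the sequencing run. Fish of the Z line and of the A line share no non-carriers, so the line was entered as a second term and each gene was also followed within each line.

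Antitrypsin is a serine protease inhibitor that hepatocytes make in bulk and release into blood. Its nascent chain enters the ER, is folded by chaperones and leaves in COPII vesicles, while misfolded chains are drawn back to the cytosol and degraded by the 26S proteasome (ER-associated degradation, ERAD). Material that the proteasome cannot handle can reach the lysosome through autophagy. The comparison of all carriers with all non-carriers does not separate the transcript, eGFP, antitrypsin of either form and the insertion itself, which cannot be told apart here.

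The values are counts of reads on 28210 genes. Between 33898825 and 44715713 reads were counted per fish, with a median of 37226559 in carriers and 38703958.5 in non-carriers, and the tests covered the 11801 genes that had more than 100 counts in 3 or more livers. CPM, the unit of all levels below, is a count set against the library's total after TMM scaling. On that scale a floor of 3 counts stood for 0.0492 to 0.149 CPM. Hepatocyte markers were high in every fish (mean log2 CPM of 16 genes between 10.44 and 12.69 in carriers and between 11.11 and 12.24 in non-carriers, with 0 of 16 called, 1 at an unadjusted p under 0.05 and 1 called by DESeq2). Several livers also held transcripts of neighbouring organs. The mean log2 CPM of 15 exocrine pancreas markers was 2.01 to 10.59 in carriers and 1.89 to 9.77 in non-carriers. Of these 15 genes 0 were called, 0 had an unadjusted p under 0.05 and DESeq2 called 0 (median log2 fold change 0.47). The mean of 6 endocrine pancreas markers was -3.88 to 3.08 in carriers and -3.94 to 6.06 in non-carriers, with 0 called. The mean log2 CPM of 21 intestine markers was between 3.18 and 8.68 in 6 fish (Z+ replicates 3 and 6, A+ replicates 2, 5 and 6, A- replicate 6) and at most 1.02 in the other 18, and that of 17 ovary markers was between 3.11 and 8.52 in 5 (A+ replicates 1, 2 and 3, Z+ replicate 3, Z- replicate 5). Of the fish high in intestine markers 5 were carriers, and of those high in ovary markers 4. Of the 21 and 17 genes 0 were called, 0 had an unadjusted p under 0.05, and DESeq2 called 3 and 1. The medians of the 2 lists were nevertheless 2.02 and 3.51 higher in carriers on the log2 scale. Without A- replicate 6, the only non-carrier high in intestine markers, 18 of the 21 were called higher in carriers (median 5.91), without Z- replicate 5 so were 6 of the 17 ovary markers (median 4.73), and all 17 with no term for the line. The part of these organs in the results was not tested. Beside many results, but not all, stand counts without the 6 fish high in intestine markers, or without these and A+ replicates 1 and 2. A+ replicate 3 and Z- replicate 5, also high in ovary markers, were kept in those counts. The genes of the vitellogenin and oestrogen response list ranged as widely in carriers (mean log2 CPM 2.5 to 11.96) as in non-carriers (2.91 to 11.86), with 0 of 11 called, 0 at an unadjusted p under 0.05 and 0 by DESeq2. Their median was -1.18 (0.02 in the Z line and -2.38 in the A line), -3.23 with 4 called lower without Z+ replicate 5, and 0.21 without Z- replicate 2. In whole livers, fewer cells of a type and less RNA per cell cannot be told apart.

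The transgene entry held 24326 to 331234 counts in the 12 carriers, which is 0.0588% to 0.741% of all counts, and 5 to 274 counts in the 12 non-carriers. Its level was 903 to 6894 CPM in Z+ (median 4304), 1555 to 4871 CPM in A+ (median 3322), 0.0981 to 7.34 CPM in Z- (median 0.620) and 0.216 to 6.06 CPM in A- (median 3.64). The lowest carrier was 123 times the highest non-carrier, and no fish went against its label. The carriers were higher (log2 fold change 10.66 ± 0.85, adjusted p = 8.2e-08, where ± is the SE of the fit over 24 fish), and the difference between the steps of the 2 lines was not past the threshold (1.25 ± 1.13, adjusted p = 0.53). Endogenous serpina1 (log2 fold change 0.42 ± 0.24, adjusted p = 0.25), its paralogue serpina1l (log2 fold change 1.21 ± 0.46, adjusted p = 0.075) and fabp10a, whose promoter the transgene uses (log2 fold change 0.41 ± 0.26, adjusted p = 0.3), were not called.

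Over all tested genes, 958 were higher and 905 lower in carriers at an adjusted p under 0.05 (edgeR's quasi-likelihood test, Benjamini-Hochberg adjustment), which is 15.8% of the genes, 8.12% higher and 7.67% lower. A gene was taken as changed alike when it passed this test, had the same sign in both lines with an unadjusted p under 0.05 in each, and had the smaller of the 2 within-line changes at 0.5 times the larger or more. By this rule 389 genes rose alike (3.30%), the transgene among them, and 404 fell alike (3.42%), together 793 or 6.72% of the tested genes. The calls themselves choose these genes, so their counts describe the comparison and are no further test of it. The other 1070 called genes failed the rule in 984 cases because 1 or both lines did not reach an unadjusted p of 0.05, in 81 because the steps were unequal in size and in 5 because the signs were opposite. Genes that fell alike moved little (median log2 fold change -0.63, largest fall -4.42), and those that rose alike moved somewhat more (median 0.89, largest 2.89 apart from the transgene).

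Within the lines, Z+ compared with Z- gave 826 higher and 610 lower genes (5.17%), together 12.2%, and A+ compared with A- gave 622 higher (5.27%) and 574 lower (4.86%), together 10.1%. In 268 genes both lines passed the threshold with the same sign, which is 18.7% of the genes called in the Z line and 22.4% of those called in the A line. In 8, lrrc8db among them, they passed it with opposite signs. Over all 11801 genes the steps of the 2 lines had the same sign in 56.9%, and their correlation across genes, which are not independent replicates, was -0.17, as a description. A direct test of the difference between the steps called 62 genes (0.525%), of which 0 were changed alike. The rule asks for steps of like sign and size, so this 0 was nearly fixed in advance. With library totals in place of TMM the Z line gave 232 higher and 287 lower and the A line 346 higher and 197 lower, so the share of higher genes within a line depends on the scaling. Single livers also moved the counts within a line by more than 1.5 times. The Z line gave 871 without Z+ replicate 2, 902 without Z+ replicate 3 and 2188 without A+ replicate 2, and the A line gave 675 without A+ replicate 1, 753 without A- replicate 3 and 500 without A- replicate 5.

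**Figure D1:**
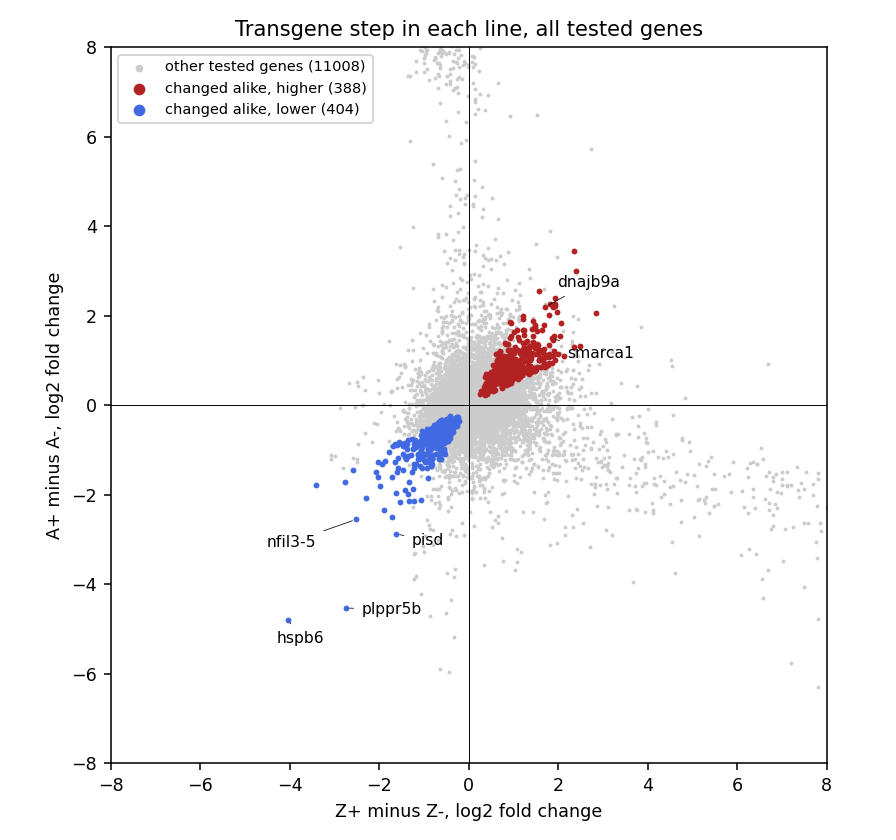
Log2 fold change of Z+ minus Z- (x axis) against A+ minus A- (y axis) for the tested genes apart from the transgene, with 388 genes that rose alike in red, 404 that fell alike in blue and the others in grey. The coloured genes lie near the diagonal because the rule put them there, hspb6 and plppr5b farthest down, while the long grey arms are genes with large values in 1 line, and 101 genes beyond 8 on either axis are not drawn.

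The 8 endogenous genes with a symbol that rose alike with the smallest adjusted p differ in what they encode. The first was smarca1, an ISWI-type ATPase that spaces nucleosomes. Its level was 9.62 to 19.2 CPM in Z+ (median 13.9), 5.26 to 10.6 CPM in A+ (median 8.45), 3.39 to 4.53 CPM in Z- (median 3.78) and 2.13 to 3.98 CPM in A- (median 2.69), so that every carrier lay above every non-carrier, and the change was a log2 fold change 1.68 ± 0.15, adjusted p = 2.0e-07 (1.85 ± 0.20 in the Z line and 1.5 ± 0.20 in the A line). The same separation held for mctp2b, a membrane protein with calcium-binding C2 domains, at 13.1 to 30.6 CPM in carriers (median 22.7) and 4.34 to 10.8 CPM in non-carriers (median 7.82) (log2 fold change 1.58 ± 0.16, adjusted p = 3.8e-06), and for cdc14b, a dual-specificity phosphatase of the cell cycle, at 27.2 to 68.0 CPM in carriers (median 38.8) and 14.8 to 26 CPM in non-carriers (median 19.2) (log2 fold change 1.13 ± 0.12, adjusted p = 5.5e-06). Every carrier lay above every non-carrier in 11 genes (0.0932%) and below in 24 (0.203%), together 0.297% of those tested, and 34 of these 35 were changed alike. Such a separation gives both lines the same sign, so this overlap was nearly fixed in advance.

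The next 5 overlapped at the edges only. In ylpm1, which encodes a nuclear protein with YLP repeats, the lowest carrier was at 12.8 CPM and the highest non-carrier at 13 (log2 fold change 1.24 ± 0.14, adjusted p = 7.1e-06). For clk4a, a kinase of SR splicing factors, levels were 24.5 to 88.9 CPM in carriers (median 43.3) and 13.8 to 26.6 CPM in non-carriers (median 18.3) (log2 fold change 1.31 ± 0.17, adjusted p = 4.1e-05), with the Z+ median of 61.8 CPM above the A+ median of 34.5. The calcium-responsive transcription factor gene carf (log2 fold change 0.86 ± 0.11, adjusted p = 4.1e-05), sh3kbp1, an adaptor in receptor endocytosis (log2 fold change 1.19 ± 0.16, adjusted p = 8.3e-05), and rfxap, a subunit of the RFX complex that activates MHC class II genes in mammals (log2 fold change 0.83 ± 0.11, adjusted p = 1.0e-04), followed, each with medians in both carrier genotypes above both non-carrier medians. Among genes with a symbol, the largest rises belonged to genes of low level. They were hrh3 (histamine receptor, log2 fold change 2.68 ± 0.81, adjusted p = 0.026), sik2a (salt-inducible kinase, log2 fold change 2.46 ± 0.41, adjusted p = 3.2e-04), gcna (a germ cell nuclear protein, log2 fold change 2.08 ± 0.55, adjusted p = 0.012) and inhbab (an activin subunit, log2 fold change 2.04 ± 0.49, adjusted p = 0.0062). The filter of more than 100 counts in 3 fish could be met through carriers alone. Non-carrier medians were only 0.124 CPM in hrh3, 0.507 in sik2a, 0.541 in gcna and 0.370 in inhbab. The rank of these genes is thus partly set by the filter. The ranges of all 4 overlapped, and in gcna A+ replicate 2, the fish highest in ovary markers, stood at 18.1 CPM while no other carrier passed 3.49. Without that fish gcna stood at 1.26 and was not called. The call of gcna was lost in 6 of its 42 alternatives and that of hrh3 in 3 of 38.

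Among the genes that fell alike, those with the smallest adjusted p acted on lipids, in lysosomes, in peroxisomes and in the proteasome. The leading one was pnpla8, a calcium-independent phospholipase A2 of mitochondria and peroxisomes, at 9.14 to 12.4 CPM in Z+ (median 11.1), 8.02 to 12.7 CPM in A+ (median 9.85), 17.4 to 28.1 CPM in Z- (median 22.4) and 17.7 to 26.2 CPM in A- (median 23.7). The 2 ranges did not meet, and the change was a log2 fold change -1.1 ± 0.10, adjusted p = 7.7e-07 (-1.03 ± 0.15 in the Z line and -1.16 ± 0.15 in the A line). The small heat shock protein gene hspb6 fell most, from 2.99-70.6 CPM in non-carriers (median 15.4) to 0.316-1.82 CPM in carriers (median 0.785) (log2 fold change -4.42 ± 0.49, adjusted p = 7.1e-06). Its non-carriers spread widely, with 1 A- fish at 70.6 CPM, yet no carrier reached the lowest of them.

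The lysosomal fucosidase gene fuca1.2 (log2 fold change -0.93 ± 0.11, adjusted p = 2.8e-05) and fam219aa (log2 fold change -1.13 ± 0.15, adjusted p = 5.1e-05) were also lower in every carrier than in every non-carrier. For pisd, the mitochondrial decarboxylase that makes phosphatidylethanolamine, levels were 16.5 to 61.4 CPM in Z+ (median 27.9), 14.9 to 30.4 CPM in A+ (median 20), 67.1 to 141 CPM in Z- (median 107) and 81.6 to 278 CPM in A- (median 146). Carriers and non-carriers again did not overlap (log2 fold change -2.25 ± 0.28, adjusted p = 4.1e-05), with steps of -1.63 ± 0.34 in the Z line and -2.87 ± 0.36 in the A line whose difference was not past the threshold (1.24 ± 0.47, adjusted p = 0.14). After hspb6 the largest falls among genes with a symbol were in plppr5b, a relative of the lipid phosphatases (log2 fold change -3.63 ± 0.80, adjusted p = 0.0033), lacc1 (log2 fold change -2.60 ± 0.45, adjusted p = 5.2e-04) and nfil3-5 (given with the clock genes). Here the filter on counts could be met through non-carriers alone. Carrier medians were 0.785 CPM in hspb6, 0.544 in plppr5b, 0.441 in lacc1 and 0.706 in nfil3-5, so these ranks too are partly set by the filter. 2 further genes, chosen after their values were seen, were samm50, which sorts proteins into the mitochondrial outer membrane (log2 fold change -0.59 ± 0.09, adjusted p = 1.7e-04, no overlap), and atp13a3, a P5-type ATPase (log2 fold change -1.42 ± 0.19, adjusted p = 6.2e-05).

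**Figure D2:**
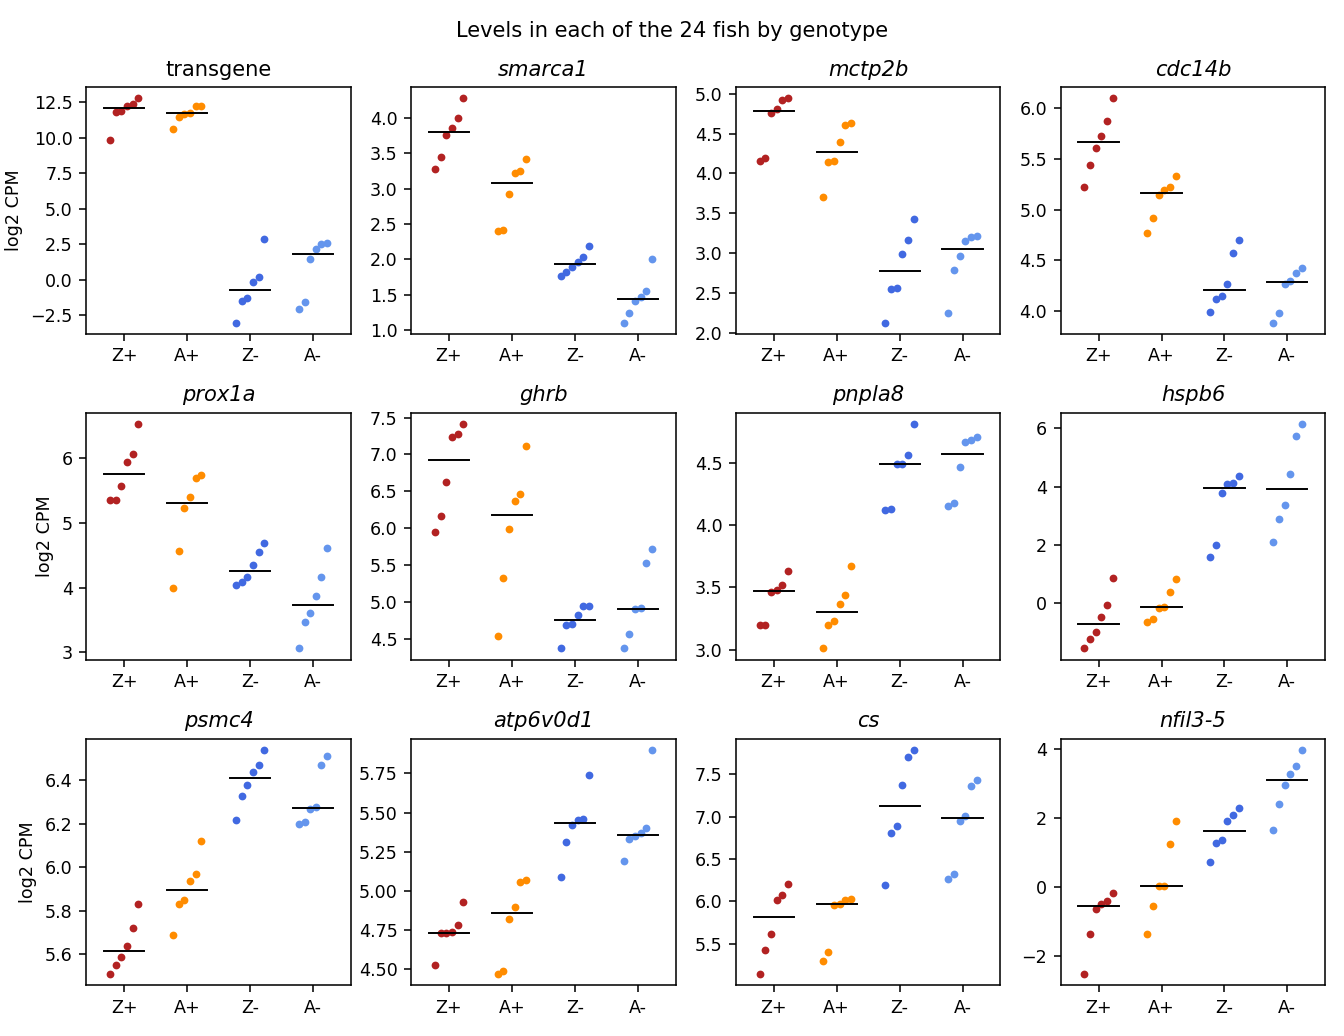
Log2 CPM (prior count 1) of the transgene and 11 genes in each fish, with 6 points per genotype and a bar at the median. The transgene and the 5 genes from smarca1 to ghrb have higher medians in Z+ and A+ than in Z- and A-, the 6 from pnpla8 on have lower ones, and in smarca1, mctp2b, cdc14b, pnpla8, hspb6, psmc4 and atp6v0d1 no carrier overlaps a non-carrier.

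Of the lists examined, the proteasome had the largest share of called genes. It is the protease complex that degrades ubiquitinated proteins, those of ERAD included. Of 36 tested subunit genes 32 were lower and 0 higher in carriers (88.9%, against 7.67% of all tested genes lower), and 29 fell alike (3.42% of all genes). The median log2 fold change was -0.50 (Z line -0.54, A line -0.46) beside 0.04 over all genes, and 35 of 36 genes lay below 0 in both lines. The mean log2 CPM of the 36 genes was 4.83 to 5.09 in Z+, 4.73 to 5.22 in A+, 5.32 to 5.61 in Z- and 5.21 to 5.50 in A-. Only A+ replicate 2, at 5.22, reached into the range of the non-carriers, whose lowest fish was A- replicate 1 at 5.21.

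The decrease covered every sub-complex. In the core particle 6 of 8 alpha genes fell and 7 of 7 beta genes, psmb5 among them, whose product carries the chymotrypsin-like activity (log2 fold change -0.48 ± 0.10, adjusted p = 0.002). In the regulatory particle it was 11 of 12 genes of the base, which unfolds substrates and is counted here with its assembly chaperone psmd10, and 8 of 9 of the lid, which removes ubiquitin. The ATPase subunit genes psmc6 and psmc4 led the list. Levels of psmc4 were 45.5 to 56.8 CPM in Z+ (median 49.0), 51.5 to 69.7 CPM in A+ (median 59.4), 74.5 to 92.9 CPM in Z- (median 84.8) and 73.7 to 91.4 CPM in A- (median 77.5), with no overlap (log2 fold change -0.59 ± 0.08, adjusted p = 5.4e-05). In psmc6 the carriers reached 55.5 CPM, just past the lowest non-carrier at 54.5 (log2 fold change -0.67 ± 0.08, adjusted p = 4.1e-05). The lid subunits psmd11b (log2 fold change -0.60 ± 0.12, adjusted p = 0.002) and psmd14, the deubiquitinase (log2 fold change -0.40 ± 0.11, adjusted p = 0.017), changed by amounts near the median. The deepest fall was psmd10 (-0.83), and psma2, psma6b, psmd1 and psmd11a were not called. Cytosolic ribosomal protein genes, which also encode 1 large complex, had 0 of 76 called, 0 at an unadjusted p under 0.05 and 0 by DESeq2, at a median of 0.10.

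**Figure D3:**
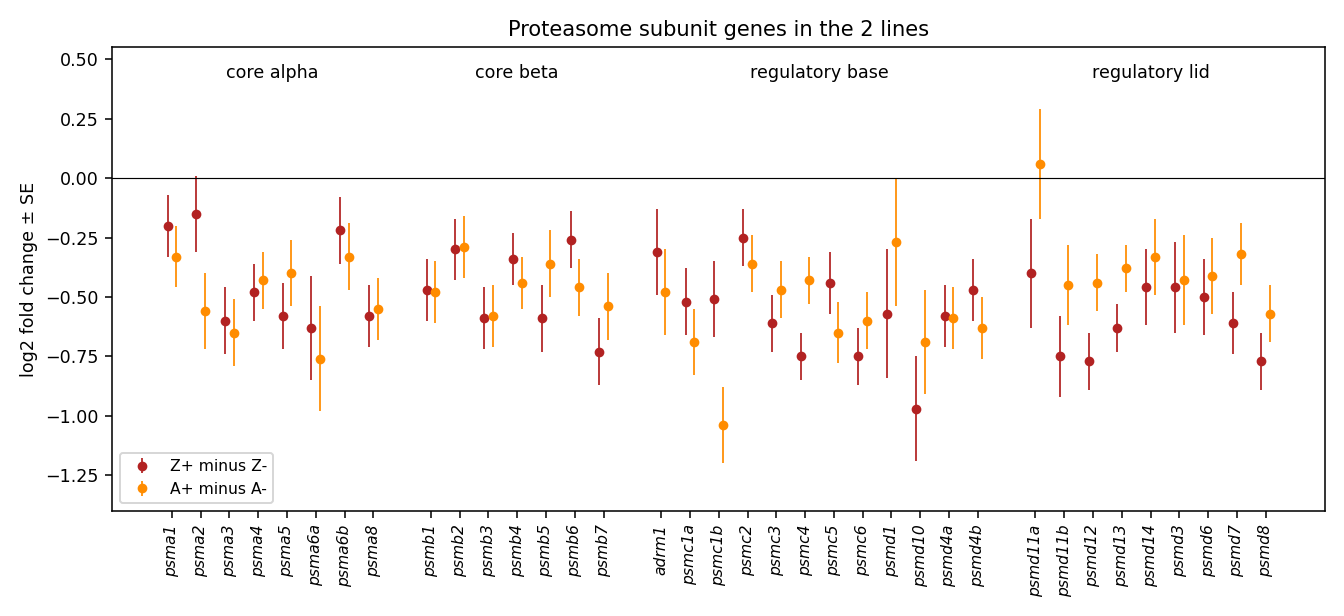
Log2 fold change with its standard error for each of the 36 proteasome genes in Z+ minus Z- (dark red) and A+ minus A- (orange), ordered by sub-complex. All points lie below 0 except psmd11a in the A line, and in 30 of 36 genes the error bars of the 2 lines meet.

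Genes that build and control the proteasome form a list written after these data had been seen. The list is therefore no separate check of the proteasome result. Against 7.67% of all tested genes lower, 6 of its 12 genes were lower and 0 higher (median -0.37). They were nfe2l1a, the transcription factor that raises proteasome genes in mammals when proteasome activity is short (log2 fold change -0.99 ± 0.23, adjusted p = 0.0055), ddi2, the protease that releases that factor (log2 fold change -0.34 ± 0.10, adjusted p = 0.026), the assembly factors pomp (log2 fold change -0.44 ± 0.08, adjusted p = 0.001) and psmg1 (-0.40), and the activators psme1 (-0.51) and psme4b (-0.31). The Z- fish of nfe2l1a ran from 11 to 68.7 CPM, and thus across the whole carrier range of 12.9 to 30.2. The call of ddi2 was lost in 9 of its 43 alternatives. Without Z- replicate 6 or A- replicate 3 the list counted 3 lower, and with library totals alone 2. For the proteasome itself the count was 17 with library totals alone, 31 without the 6 fish with intestine transcripts and 26 when A+ replicates 1 and 2 were also left out, with the median at -0.50, -0.52 and -0.50.

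The vacuolar ATPase, the proton pump that acidifies lysosomes (a list written later), had 11 of 18 genes lower and 0 higher, 6 of them alike, with a median of -0.40 (Z line -0.28, A line -0.52). Its mean log2 CPM was 3.93 to 4.37 in carriers and 4.42 to 5 in non-carriers, without overlap. Among the subunits of the V1 sector, which splits ATP, atp6v1c1b stood at 4.38 to 13.2 CPM in carriers (median 9.01) and 13.4 to 33.8 CPM in non-carriers (median 24), so that the highest carrier and the lowest non-carrier almost touched (log2 fold change -1.46 ± 0.18, adjusted p = 4.1e-05), and atp6v1e1b fell by less (log2 fold change -0.82 ± 0.11, adjusted p = 6.6e-05). In the membrane sector V0, atp6v0d1 was lower in every carrier (log2 fold change -0.65 ± 0.10, adjusted p = 1.5e-04). The count was 4 with library totals alone, 9 without the fish with intestine transcripts and 7 without A+ replicates 1 and 2 as well.

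Autophagy genes gave no common direction, with 1 of 38 higher and 4 lower (2.63% and 10.5%, against 8.12% and 7.67% of all tested genes). The adaptor sqstm1, which binds ubiquitinated cargo, fell alike (log2 fold change -1.11 ± 0.24, adjusted p = 0.0028) from 36.5-192 CPM in non-carriers (median 67.6) to 31.9-53.8 CPM in carriers (median 36), and so did vmp1, an ER protein of autophagosome formation (log2 fold change -0.64 ± 0.12, adjusted p = 0.001). The adaptor optn (log2 fold change -0.91 ± 0.16, adjusted p = 4.2e-04) and gabarapa (-0.51) were lower and the initiating kinase ulk1b higher (log2 fold change 1.4 ± 0.25, adjusted p = 5.9e-04), but none of these 3 met the rule for a like change (2.05 ± 0.29 in the Z line and 0.74 ± 0.28 in the A line for ulk1b). Without A+ replicate 2 the counts were 2 higher and 8 lower, 3 genes were higher without A+ replicate 3, 4, 5 or 6 or A- replicate 6, and 2 without Z+ replicate 5 or A- replicate 3 or 4.

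In the mitochondrial lists the called genes were all lower and most members were not called. In oxidative phosphorylation 21 of 50 genes were lower and 0 higher (42%), with a median of -0.32 and 47 of 50 below 0 in both lines, though only 8 met the rule for a like change. The genes called encode subunits of complexes I to IV and of the ATP synthase. In atp5mc3a, a subunit of the ATP synthase ring, levels were 105 to 137 CPM in Z+ (median 120), 75.3 to 140 CPM in A+ (median 112), 143 to 179 CPM in Z- (median 165) and 134 to 172 CPM in A- (median 149) (log2 fold change -0.43 ± 0.09, adjusted p = 0.0016), with the carriers' highest fish at 140 CPM above the lowest non-carrier at 134. The complex III core gene uqcrc1 fell as well (log2 fold change -0.63 ± 0.13, adjusted p = 0.002). The count was 7 with library totals alone, 8 of 49 without the fish with intestine transcripts and 3 of 49 without A+ replicates 1 and 2 as well, and in those settings the median lay between -0.38 and -0.20.

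For mitochondrial ribosome subunits (a list written later) the count was 31 of 74 lower and 0 higher, 10 of them alike. The list's median was -0.27, but -0.43 in the Z line and -0.12 in the A line, though the difference between the lines was not tested for the list. The leading members were mrps5 (log2 fold change -0.66 ± 0.10, adjusted p = 1.9e-04) and mrps30 (log2 fold change -0.50 ± 0.09, adjusted p = 8.7e-04). The count fell to 17 without Z+ replicate 2 and to between 18 and 20 without Z+ replicate 3, 4 or 6, Z- replicate 1, 4 or 6 or A- replicate 4, to 6 with library totals alone, and to 11 without the fish with intestine transcripts and A+ replicates 1 and 2.

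In the citrate cycle (a list written later) 8 of 23 genes were lower and 0 higher, 7 alike, with a median of -0.33. The entry enzyme, citrate synthase (cs), was at 35.2 to 73.3 CPM in Z+ (median 57.0), 39.5 to 65.1 CPM in A+ (median 62.6), 73.1 to 222 CPM in Z- (median 142) and 76.4 to 172 CPM in A- (median 126). The highest carrier at 73.3 CPM and the lowest non-carrier at 73.1 barely crossed (log2 fold change -1.29 ± 0.19, adjusted p = 1.5e-04). The NADP-linked isocitrate dehydrogenase gene idh1 (-1.1) and the cytosolic aconitase gene aco1 (-1.12) fell alike, and idh3g of the mitochondrial isocitrate dehydrogenase fell by less (log2 fold change -0.40 ± 0.07, adjusted p = 5.7e-04). The list counted 4 with library totals alone, 5 without the fish with intestine transcripts and 2 without A+ replicates 1 and 2 as well.

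The fatty acid synthesis list holds the genes of lipogenesis and of the desaturation and elongation of its products. Of 16 fatty acid synthesis genes 7 were lower and 0 higher (43.8%), 5 alike, with a median of -0.59 (Z line -0.63, A line -0.57), and all 16 estimates were below 0. Fatty acid synthase (fasn) stood at 1504 to 6291 CPM in Z+ (median 3298), 2046 to 5134 CPM in A+ (median 3444), 3343 to 10403 CPM in Z- (median 7259) and 3394 to 8571 CPM in A- (median 6643) (log2 fold change -0.87 ± 0.24, adjusted p = 0.016). The elongase elovl6, which turns palmitate into stearate, was at 286 to 1839 CPM in carriers (median 716) and 800 to 2993 CPM in non-carriers (median 2390) (log2 fold change -1.45 ± 0.30, adjusted p = 0.0021). The desaturase scd (log2 fold change -1.17 ± 0.33, adjusted p = 0.019) and elovl5 (log2 fold change -0.67 ± 0.16, adjusted p = 0.0055) fell as well. Ranges overlapped in all 4 genes, with Z- replicate 2 or A- replicate 3 or 6 the lowest non-carrier.

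In the pentose phosphate pathway (a list written later), the main source of NADPH, 5 of 7 genes were lower, all 5 alike, with a median of -0.65. Among them were pgd at 150 to 956 CPM in carriers (median 369) and 335 to 1323 CPM in non-carriers (median 989) (log2 fold change -1.13 ± 0.24, adjusted p = 0.0028), rpe (log2 fold change -0.76 ± 0.16, adjusted p = 0.0021), pgls (-0.65) and tktb (-0.59). Without the fish with intestine transcripts and A+ replicates 1 and 2, 3 fatty acid synthesis genes and 4 pentose phosphate genes were lower, and with library totals alone 7 and 3. Of the enzymes of cholesterol biosynthesis only acat2, which makes acetoacetyl-CoA, passed the test (log2 fold change -0.93 ± 0.17, adjusted p = 9.0e-04), 1 of 22 (4.55%, against 7.67% of all tested genes lower). That list's median was -1.45 in the Z line and 0.34 in the A line. In edgeR's test of the difference between the lines 0 of 22 genes passed the threshold. Over all genes that difference had 62 calls with edgeR and 943 with DESeq2, so this 0 does not show that the lines were alike. The list's mean log2 CPM was lower in every Z+ fish than in every Z- fish (medians 4.72 and 6.31). The ranges of A+ and A- overlapped (medians 5.79 and 5.58). The list's count of genes lower in carriers was 6 without A+ replicate 4 and 3 without Z+ replicate 5, A+ replicate 5 or A- replicate 3.

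Genes of lipid droplets, phospholipids and fatty acid activation (a list written later, which includes pnpla8 and pisd) had 17 of 43 lower and 0 higher, 14 alike. The share lower was 39.5%, against 7.67% of all tested genes. The list's median was -0.20, with 27 estimates below 0 and 16 above. The droplet coat protein gene plin2 was at 20.9 to 232 CPM in carriers (median 58.2) and 67 to 521 CPM in non-carriers (median 277) (log2 fold change -1.78 ± 0.43, adjusted p = 0.0067), the triglyceride lipase gene pnpla2 at 1.90 to 6.17 CPM in carriers (median 2.99) and 2.33 to 30.8 CPM in non-carriers (median 8.58) (log2 fold change -1.79 ± 0.34, adjusted p = 0.0012), and acsl1b, a ligase that charges fatty acids with coenzyme A, fell from 51.7-337 CPM in non-carriers (median 178) to 15.7-213 CPM in carriers (median 54.6) (log2 fold change -1.60 ± 0.32, adjusted p = 0.0019). All 3 were lower at the median in both carrier genotypes, with overlapping ranges. Of the enzymes that build glycerolipids, agpat2 fell by 1.03 and pcyt2 by 0.63 on the log2 scale. In the list of fatty acid oxidation and fasting 5 of 24 genes were lower (20.8%, against 7.67% of all tested genes) and 0 higher. Its median was only -0.08, with 14 estimates below 0 and 10 above. The called genes were led by pparaa, a nuclear receptor that switches on fat burning (log2 fold change -1.62 ± 0.23, adjusted p = 1.0e-04), at 11.5 to 38.1 CPM in carriers (median 18.4) and 29.5 to 104 CPM in non-carriers (median 53.8). Counts without the fish with intestine transcripts and A+ replicates 1 and 2 were 11 of 42 and 3 of 24.

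The ER genes that meet a secretory load first showed little that was shared. Of 25 ER chaperones 0 were called, 0 had an unadjusted p under 0.05 and DESeq2 called 0, with a median of -0.39 in the Z line and 0.39 in the A line. Of 25 ERAD genes 1 was lower, vcp, the ATPase that pulls chains out of the membrane (log2 fold change -0.48 ± 0.16, adjusted p = 0.039), a call that was lost in 21 of its 43 alternatives. In the COPII and translocon list lman2 (log2 fold change -0.35 ± 0.10, adjusted p = 0.02) and sec24d (log2 fold change -0.44 ± 0.15, adjusted p = 0.043) were lower, 2 of 37, and sec24d lost its call in 22 of 43 alternatives. COPI coat genes (a list written later), which serve the return path to the ER, had 2 of 9 lower (22.2%), copz1 without overlap of the ranges (log2 fold change -0.51 ± 0.08, adjusted p = 1.5e-04) and copb2 (log2 fold change -0.63 ± 0.12, adjusted p = 0.0012).

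The unfolded protein response list, which holds sensors and targets of 3 branches, had 4 of 17 genes higher (23.5%, against 8.12% of all genes) and 1 lower. The ERdj4 gene dnajb9a, a co-chaperone of BiP and a target of the IRE1 branch in mammals, was at 2.56 to 7.65 CPM in Z+ (median 6.76), 1.92 to 11.5 CPM in A+ (median 6.82), 0.942 to 4.33 CPM in Z- (median 1.44) and 0.877 to 2.01 CPM in A- (median 1.56) (log2 fold change 1.95 ± 0.29, adjusted p = 1.6e-04). It rose in both lines (1.71 ± 0.41 in the Z line and 2.2 ± 0.42 in the A line), while the sensor ern1 itself was lower (-0.66). chac1, a glutathione-degrading target of ATF4, was higher (log2 fold change 1.11 ± 0.24, adjusted p = 0.003), and so were sesn2 (1.17) and eif2ak3 (0.84). Without A+ replicate 2 or A- replicate 2, 4 or 5, 2 genes were called higher, and 2 without the fish with intestine transcripts. In the cytosol the HSP40 genes dnajb1a (log2 fold change 0.88 ± 0.13, adjusted p = 1.5e-04, every carrier above every non-carrier) and dnajb1b (log2 fold change 1.27 ± 0.30, adjusted p = 0.0056) rose alike, and hsp90aa1.2 was higher (1.85), 3 of 18 genes of the heat shock list. For dnajb1b, at 2.68 to 29.6 CPM in carriers (median 6.47) and 1.79 to 6.67 CPM in non-carriers (median 3.28), the value was 0.84 without A+ replicate 2, still past the threshold, and the call was lost in 2 of 43 alternatives.

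**Figure D4:**
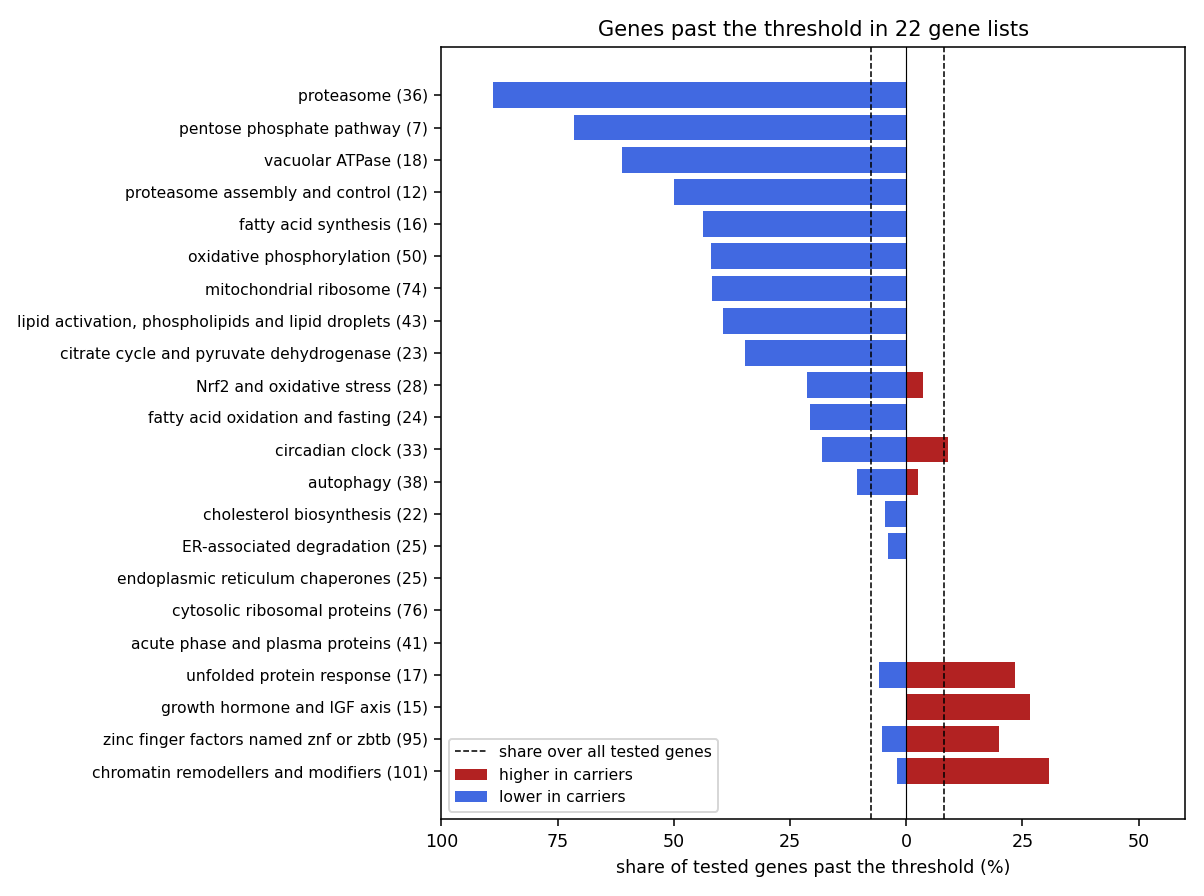
Share of the tested genes (number in brackets) of 22 lists that were lower (blue, to the left) or higher (red, to the right) in carriers at an adjusted p under 0.05, with dashed lines at the shares over all tested genes, 7.67% lower and 8.12% higher. The proteasome stands out at 88.9% lower, while ER chaperones, cytosolic ribosomal proteins and acute phase proteins have no called gene. Among the lists drawn, chromatin genes have the largest share of higher genes. The lists of chromatin, zinc finger, pentose phosphate, vacuolar ATPase, proteasome assembly, mitochondrial ribosome, lipid and citrate cycle genes were written after these data had been seen. Their shares are therefore no separate check.

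On the rising side, chromatin remodellers and modifiers (a list written later) had 31 of 101 genes higher and 2 lower (30.7% and 1.98%), 17 alike, with a median of 0.31 (Z line 0.22, A line 0.30). Beside smarca1 the best separated was arid1aa, a DNA-binding subunit of the BAF complex, at 18.7 to 34.7 CPM in carriers (median 24.9) and 12.3 to 18.7 CPM in non-carriers (median 16.2), where the highest non-carrier and the lowest carrier were equal after rounding but did not cross (log2 fold change 0.69 ± 0.10, adjusted p = 1.5e-04). Other subunits of these complexes moved with it, arid2 by 0.76, pbrm1 by 0.67 and the CHD helicase chd8 by 0.88. The mean of the list was 3.35 to 3.6 in Z+ and 3.05 to 4.14 in A+, against 3.09 to 3.28 in non-carriers, with A+ replicate 2 the highest fish and A+ replicate 6 the lowest. With library totals alone 12 were higher, and without the fish with intestine transcripts and A+ replicates 1 and 2 33 of 97.

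Zinc finger genes named znf or zbtb (a list written later) had 19 of 95 higher and 5 lower, 12 and 2 alike. The repressor zbtb17 (log2 fold change 0.96 ± 0.15, adjusted p = 1.6e-04) and znf236 (log2 fold change 1.03 ± 0.16, adjusted p = 1.9e-04) led, and znf143a, an activator at promoters of small RNA genes, was 1.41 higher. The list's median of 0.15 was -0.01 in the Z line. Without A+ replicate 2 the counts were 18 higher and 9 lower, and the lower genes numbered 3 without Z- replicate 5 and 2 without Z- replicate 6.

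**Figure D5:**
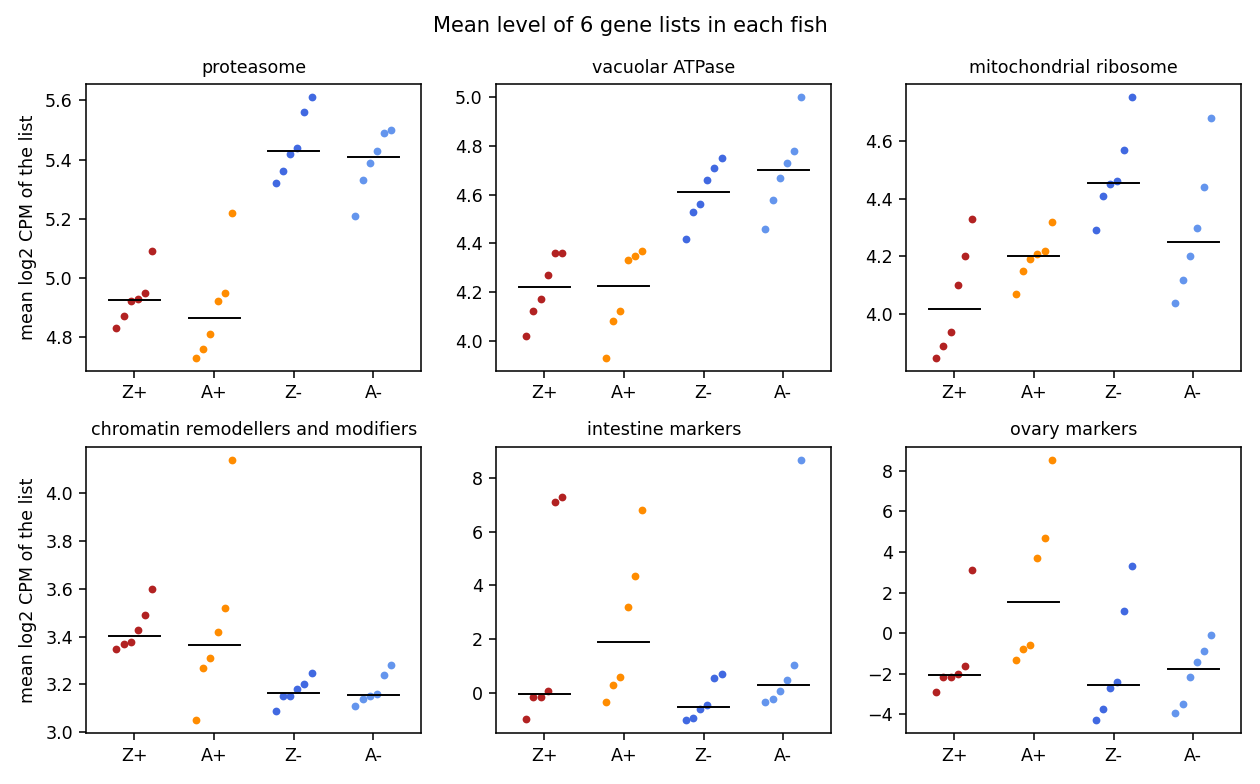
Mean log2 CPM of the genes of 6 lists in each fish, with 6 points per genotype and a bar at the median. For the proteasome and the vacuolar ATPase the carriers lie below the non-carriers in both lines, apart from A+ replicate 2 for the proteasome, whereas the intestine and ovary markers are high in single fish of several genotypes.

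Hepatocyte regulators and genes of the growth hormone axis gave small counts. Of 20 hepatocyte identity factors 3 were higher and 0 lower (15%, against 8.12% of all genes), 2 alike, with a median of 0.13. Prospero-like prox1a, needed for the growth of the liver bud, was at 40.7 to 92.5 CPM in Z+ (median 54.5), 16 to 53.4 CPM in A+ (median 39.9), 16.4 to 25.8 CPM in Z- (median 19.1) and 8.34 to 24.5 CPM in A- (median 13.3) (log2 fold change 1.44 ± 0.20, adjusted p = 1.0e-04), and hnf4a, a master regulator of hepatocyte genes, at 62.1 to 180 CPM in carriers (median 153) and 70.5 to 118 CPM in non-carriers (median 100) (log2 fold change 0.59 ± 0.13, adjusted p = 0.0044). In both genes A+ replicate 2 was the lowest carrier, and apart from it and, in prox1a, A+ replicate 6, every carrier lay above every non-carrier. The list counted 5 higher without A+ replicate 2, Z+ replicate 5 or A- replicate 3 or 6, and 6 without the fish with intestine transcripts. Of 15 genes of the growth hormone and IGF list 4 were higher and 0 lower (26.7%). The growth hormone receptor ghrb was at 61.8 to 170 CPM in Z+ (median 125), 23.2 to 138 CPM in A+ (median 73.2), 20.7 to 30.8 CPM in Z- (median 27) and 20.6 to 52.6 CPM in A- (median 30.0) (log2 fold change 1.62 ± 0.26, adjusted p = 2.9e-04). Its feedback inhibitor cish (log2 fold change 1.91 ± 0.37, adjusted p = 0.0013) and the secreted growth factor igf1 (log2 fold change 0.93 ± 0.23, adjusted p = 0.0087) rose alike, and igf2b was higher (0.61). In ghrb A+ replicate 2 at 23.2 CPM and A+ replicate 6 at 40.2 CPM lay within the non-carrier range. The steps of ghrb were 2.13 ± 0.35 in the Z line and 1.1 ± 0.34 in the A line. The count was 4 both without the fish with intestine transcripts and without A+ replicates 1 and 2 as well.

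Of 33 clock genes 3 were higher and 6 lower (9.09% and 18.2%, against 8.12% and 7.67% of all tested genes). The share of higher genes was thus near that of all genes. nfil3-5, a bZIP repressor, stood at 0.146 to 0.854 CPM in Z+ (median 0.649), 0.361 to 3.73 CPM in A+ (median 0.983), 1.62 to 4.91 CPM in Z- (median 3.13) and 3.14 to 15.8 CPM in A- (median 8.72) (log2 fold change -2.53 ± 0.36, adjusted p = 1.0e-04), with like steps (-2.52 ± 0.52 in the Z line and -2.55 ± 0.51 in the A line), and A+ replicates 5 and 6 lay within the non-carrier range. The nuclear receptor genes rorcb (log2 fold change -2.12 ± 0.34, adjusted p = 2.4e-04) and nr1d2b (log2 fold change -1.1 ± 0.21, adjusted p = 0.0014) and the activator dbpb (log2 fold change -0.57 ± 0.16, adjusted p = 0.019) also fell alike. The genes called higher, per2 (1.21 ± 0.19 in the Z line and 0.12 ± 0.19 in the A line), per3 (0.85 ± 0.16 in the Z line and 0.35 ± 0.16 in the A line) and tefa (1.34 ± 0.28 in the Z line and 0.31 ± 0.28 in the A line), did not rise alike. Without A+ replicate 2 the counts were 6 higher and 6 lower. The hour at which each fish was sampled is not in the labels, so its part in these values cannot be told apart from that of the genotype.

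Several other called genes belonged to none of these groups. The cyclin ccne2 of DNA synthesis was lower (log2 fold change -1.68 ± 0.37, adjusted p = 0.0034) and the cyclin-dependent kinase inhibitor cdkn1a higher (log2 fold change 0.89 ± 0.22, adjusted p = 0.0091), both alike. Peroxiredoxin prdx1 (-1.05) and the glutathione synthesis gene gclm (-0.56) fell alike and metallothionein mt2 rose (1.61), among 28 genes of the Nrf2 list with 1 higher and 6 lower, among them the pentose phosphate genes pgd and tktb already given. The oxysterol hydroxylase cyp7b1 rose alike (log2 fold change 0.83 ± 0.22, adjusted p = 0.011), 1 of 13 bile acid genes (7.69%, against 8.12% of all tested genes). In marker lists of other liver cells, col5a1 (log2 fold change 0.73 ± 0.16, adjusted p = 0.0028) and lrata (log2 fold change 0.93 ± 0.23, adjusted p = 0.0087), 2 of 14 stellate and fibroblast genes (14.3%, against 8.12% of all tested genes), were higher. So was tie1 (log2 fold change 0.82 ± 0.19, adjusted p = 0.0058), 1 of 14 endothelial genes (7.14%, against 8.12% of all tested genes). Of 10 erythrocyte genes 2 were lower, hbaa2 (log2 fold change -2.26 ± 0.65, adjusted p = 0.02) and hbba2 (log2 fold change -2.07 ± 0.59, adjusted p = 0.02), with -1.02 ± 0.73 in the Z line and -3.15 ± 0.78 in the A line for hbba2. Members of each list lay on both sides of 0. Of the stellate and fibroblast genes 6 were below and 8 above (median 0.09, Z line 0.56, A line -0.43). Of the endothelial genes 4 were below and 10 above (median 0.24), and of the erythrocyte genes 5 and 5 (median 0.02). Of 41 acute phase and plasma protein genes 0 were called, with 4 at an unadjusted p under 0.05, 0 by DESeq2 and 4 higher without A+ replicate 2. Of 34 complement genes 1 was lower (c7b, log2 fold change -2.13 ± 0.57, adjusted p = 0.013), with 3 lower without Z+ replicate 3 and 3 higher without A+ replicate 2. Of 17 coagulation genes 1 was higher (pros1, log2 fold change 0.43 ± 0.13, adjusted p = 0.028), a call lost in 12 of 43 alternatives, among them without Z+ replicate 3 or 6 or A- replicate 4, and 3 were higher without A+ replicate 2. The shares, 2.94% lower in complement and 5.88% higher in coagulation, were below those of all tested genes (7.67% and 8.12%). In regulation of sterols 1 of 19 genes was higher (5.26%, mbtps2, 0.57) and 3 were lower (15.8%), lpcat3 (-1.05), insig1 (-1.06) and stard4 (-0.57), none of them alike. In glucose production insrb (-0.83) and foxo3a (-0.88) were lower, 2 of 23 (8.70%, near the 7.67% of all tested genes).

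3 genes had the smallest adjusted p for the difference between the steps of the lines. lrrc8db, a subunit of volume-regulated anion channels, was higher in Z+ than in Z- and lower in A+ than in A- (0.89 ± 0.20 in the Z line and -0.96 ± 0.20 in the A line), at 7.20 to 13.7 CPM in Z+ (median 12.6), 2.71 to 5.24 CPM in A+ (median 4.52), 3.91 to 7.55 CPM in Z- (median 6.51) and 7.31 to 10.8 CPM in A- (median 8.24), and its carrier change was a log2 fold change -0.04 ± 0.25, adjusted p = 0.94, while the difference between the steps was 1.85 ± 0.28, adjusted p = 0.0065. klhl24b, an adaptor of ubiquitin ligases, was called in the carrier comparison (log2 fold change 1.81 ± 0.61, adjusted p = 0.045) on the Z line alone (3.80 ± 0.46 in the Z line and -0.23 ± 0.43 in the A line, difference 4.03 ± 0.62, adjusted p = 0.0065). The anion exchanger slc26a3.2 differed likewise (3.87 ± 0.59 in the Z line and -1.15 ± 0.53 in the A line, difference 5.02 ± 0.78, adjusted p = 0.0065). In klhl24b every Z+ fish, from 4.16 CPM, lay above every other fish, at most 1.97 CPM. The filter of more than 100 counts in 3 fish could be met here through Z+ alone, so that separation is partly set by it. A further such gene, chosen after its values were seen, was abca1a, the cholesterol exporter (0.75 ± 0.32 in the Z line and -1.98 ± 0.33 in the A line, difference 2.73 ± 0.46, adjusted p = 0.012), whose carrier change of -0.61 was not called (adjusted p = 0.31).

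Genes that rose alike and genes that fell alike also differed in span and in level, as described here without a test. The span of a gene, from the annotation of the GRCz12tu assembly by name, had a median of 28231 bp in 343 matched genes that rose alike, 14392 bp in 382 that fell alike and 17885 bp in 10237 tested genes. The median level was 2.47 log2 CPM in those that rose, 4.38 in those that fell and 3.03 over all. Level enters the filter and the tests through the counts, so it is not independent of the choice of genes. Fewer than all genes have a span (88.4%, 94.6% and 86.8%).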

How the data were processed

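Liver RNA of 24 zebrafish was sequenced. The deposited values are raw counts per protein-coding gene, which the authors made with STAR and featureCounts on GRCz11 with the transgene added and merged by gene name. All 24 fish were kept, including any the authors set aside as outliers, and fish count as replicates as the labels give them. A gene needed more than 100 counts in 3 or more fish to be tested, which was done with edgeR 4.0.16 (R 4.3.3; TMM, quasi-likelihood F test, Benjamini-Hochberg) on line plus carrier, and on 4 genotype means for the steps within lines and their difference. CPM used TMM, and log2 CPM a prior count of 1. Standard errors (±) come from these fits. Alternatives used DESeq2 1.42.0, limma 3.58.1, other filters, scalings and covariates, and each fish left out.

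The members and lists were chosen with earlier results of these data known, 9 lists later than the first 41. Named genes were the transgene, serpina1, serpina1l and fabp10a; among genes changed alike with a symbol, the 8 of smallest adjusted p and the 4 of largest change each way; up to 3 each way without overlap; up to 2 called genes per list; and 3 by the difference between lines. Some genes that this rule takes are not reported here. Other genes named were chosen after their values were seen. Of tested rows, 25 pairs repeat a name in other letter case with identical counts, 1 of them changed alike. The script was tested on simulated data.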

Additional observations from a re-analysis of the deposited data

Results flagged for a closer look

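Of 552 groups of 6 fish (4 genotypes for each of 138 genes named in the text), 36 had 1 fish whose log2 CPM lay apart from the rest of its genotype by Dixon's test, and chance alone gives about 1 in 20 groups. A+ replicate 2 stood apart in acat2 (4.92, the others 6.01 to 6.62), cyp2ad6 (1.15, the others 3.85 to 5.27), cyp2p7 (2.54, the others 3.90 to 4.63), hmox1a (0.85, the others 2.79 to 3.62), hnf4a (5.96, the others 7.06 to 7.49), igf2b (5.86, the others 7.06 to 7.77), lrrc8db (1.45, the others 2.11 to 2.40), mcl1a (7.16, the others 4.77 to 5.58), psmd1 (6.11, the others 4.06 to 4.79), psmd14 (5.13, the others 4.05 to 4.33), serpina1 (11.33, the others 13.24 to 13.76), stard4 (2.68, the others 4.12 to 4.88) and tie1 (1.93, the others 2.83 to 3.28). A- replicate 6 stood apart in atp6v0d1 (5.90, the others 5.19 to 5.40), dnajb1b (2.74, the others 1.49 to 1.91), mrps30 (5.48, the others 5.90 to 6.11) and vmp1 (6.08, the others 6.61 to 6.90). Z- replicate 2 stood apart in atp6v1c1b (3.75, the others 4.55 to 4.91), psmd11a (6.04, the others 4.90 to 5.26), psmd11b (5.82, the others 5.02 to 5.26) and serpina1l (6.13, the others 9.72 to 10.90). A+ replicate 5 stood apart in dbpb (3.99, the others 3.6 to 3.74) and rfxap (2.29, the others 2.74 to 3). A- replicate 4 stood apart in carf (1.32, the others 1.91 to 2.17) and pcyt2 (6.69, the others 7.04 to 7.22). Z+ replicate 1 stood apart in dnajb9a (1.37, the others 2.60 to 2.94) and pgls (3.47, the others 2.51 to 2.86). Z+ replicate 2 stood apart in ylpm1 (5.01, the others 4.18 to 4.47) and znf236 (2.73, the others 1.92 to 2.15). Z+ replicate 5 stood apart in the transgene (9.82, the others 11.82 to 12.75) and serpina1 (11.44, the others 12.78 to 13.39). A- replicate 2 stood apart in per3 (3.54, the others 4 to 4.21). A- replicate 3 stood apart in cyp2n13 (5.06, the others 6.69 to 7.5). Z+ replicate 4 stood apart in chac1 (6.35, the others 7.45 to 7.92). Z+ replicate 6 stood apart in igf1 (4.50, the others 5.17 to 5.49). Z- replicate 1 stood apart in acsl1b (6.68, the others 7.69 to 8.03).

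The step from Z- to Z+ differed from the step from A- to A+ past the threshold of edgeR's test of the difference in 4 of the genes named in the text. The differences, Z step minus A step on the log2 scale, were lrrc8db 1.85, klhl24b 4.03, slc26a3.2 5.02 and abca1a 2.73. None of these genes was changed alike, which the rule for a like change nearly fixes in advance.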

How the results depend on the processing

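Among genes changed alike, every one that could be tested kept its sign in each of the alternatives run. The rule had chosen these genes by their sign in both lines of the same fish, so this outcome was nearly fixed in advance and is no separate check. With library totals alone, 547 of 793 were still called in the carrier comparison, and 594 of 755 without the fish with intestine markers and A+ replicates 1 and 2. With library totals alone the carrier comparison called 907 genes, the Z line 519, the A line 543, the difference between the lines 2, the rule for a like change 470 and the proteasome 17. DESeq2 in place of edgeR called 1815 in the A line and 943 for the difference. Without a filter on low counts these were 2182 and 3, and filterByExpr gave 1811 in the A line. With a covariate, the A line and the difference had 1841 and 437 for vitellogenin, 203 and 27 for ovary markers, and 287 and 37 for intestine and ovary markers together, and the difference had 128 for intestine markers. Voom with sample quality weights called 3246 genes, 3064 in the Z line and 476 for the difference, and a per-gene linear model 664 in the A line. Without the fish with intestine markers the A line had 719 and the difference 199, and without A+ replicates 1 and 2 as well they had 89 and 18. At an adjusted p under 0.01, 829 genes were called, and requiring an adjusted p under 0.05 in each line left 268 changed alike. Fits on the 12 fish of a line called 2200 in the Z line and 133 in the A line. The counts within the A line and for the difference thus depend on the setting, and the cause was not tested.

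Leaving out each fish in turn, the carrier comparison called 1534 to 2534 genes, the Z line 871 to 2188, the A line 500 to 1500 and the difference 30 to 285. Genes changed alike numbered 666 to 1124, proteasome genes 29 to 34, and the transgene stayed between 10.52 and 11.32. The difference called 39 genes without Z+ replicate 1, 30 without Z+ replicate 2, 36 without A+ replicate 1, 32 without Z- replicate 1, 41 without Z- replicate 5, 33 without A- replicate 3 and 40 without A- replicate 5, but 285 without Z+ replicate 3, 268 without Z+ replicate 5, 238 without A+ replicate 2 and 173 without A- replicate 4. Of the named genes 1 changed direction, abca1a, which stood at 0.14 (adjusted p = 0.87, edgeR) without the fish with intestine markers and A+ replicates 1 and 2.

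The deviations of fish with the same replicate number had no common sign of r, which ran from -0.2 to 0.26. It was above 0.1 in 6 of 12 pairs, 2 in the Z line and 4 in the A line, and below 0 in the others. Of the 12 carriers 3 correlated best with the sibling of their own number. With the replicate number as a block, 1603 genes were called, 743 were changed alike, the Z line had 1260, the A line 568, the difference 53 and the proteasome 31.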

Other observations

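Some lists not described above held a few called genes each, at shares near or below those of all tested genes (8.12% higher and 7.67% lower). Of 38 genes of cytochrome P450 enzymes and conjugation 3 were higher in carriers (7.89%) and 0 lower. They were cyp2ad6 (log2 fold change 1.22), cyp2p7 (0.97) and cyp2n13 (0.95), none of them alike, and 10 were higher without A- replicate 6. Among 22 genes of p53 and apoptosis the paralogues of the survival factor MCL1 went opposite ways, mcl1a 0.73 and mcl1b -1.0, and tp53inp1 was lower (-1.46). The interferon regulator irf7 was higher (1.13), 1 of 27 genes of its list. Both pdk2a, a kinase that shuts off pyruvate dehydrogenase (-1.21 in the Z line and -3.29 in the A line), and hmox1a, which degrades haem (-1.07 and -4.22), were lower, and edgeR's test of the difference between the lines did not pass the threshold (adjusted p = 0.11 and 0.095). In hmox1a A+ replicate 2 lay below the other fish of its genotype.

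Of 10237 tested genes placed in the GRCz12tu annotation 725 were changed alike. In 32 of 10212 neighbouring pairs of tested genes both changed alike in the same direction. The number of such pairs that a random order of genes would give was not worked out, so no clustering can be read from the count. The pairs included psmb5 with copb2 and psmd10 with xiap.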
